A study of Mus musculus with 8 samples.

Results

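The Runx factors and Cbfb are the subunits of core-binding factor, a transcription factor that works as a pair of proteins, and their transcripts were followed in the naive mouse cornea. The 4 genes were taken by name, Runx1, Runx2, Runx3 and Cbfb, and matched to 4 Ensembl identifiers among the 54532 genes of the table, of which 31314 were not at 0 in all corneas. All 4 passed the filter on low values. The corneas were uninjured and comprised 4 BALB/cN samples (Balb/c in the labels) and 4 C57BL/6N samples, both inbred strains without any transgene or treatment. Only males were sequenced, and their age is not given in the labels. The strains differ in the lymphatic vessels of the cornea, and the comparison was made to find expression differences at loci that map to this trait. The labels do not say whether each cornea came from a separate mouse, so p-values here measure only the spread between these samples, which may be technical.

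RUNX proteins bind DNA through the Runt domain, and CBFβ, which does not itself touch the DNA, strengthens that binding and stabilises its RUNX partner. RUNX1 is known for its role in blood stem cells and in stem cells of stratified epithelia, RUNX2 as the factor without which osteoblasts do not form, and RUNX3 for its role in cytotoxic T cells, Langerhans cells and sensory neurons. In human corneal epithelial cells RUNX1 has been described as working with PAX6 and SMAD3 on epithelial identity genes.

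The 3 Runx genes descend from a common ancestor and share a short run of bases in their distal promoter windows. In RefSeq promoter windows of the GRCm38.p6 assembly (250 bases before to 50 bases after a transcript start), the distal windows of Runx1, Runx2 and Runx3 hold an identical run of 18 bases, which is shown because it contains the core of the RUNX binding motif, ACCACA, 2 times. The capitals mark the shared run, and each sequence is written 5′ to 3′ on the strand of its gene. The stretches printed lie at chr16:92826025-92826054 (minus strand) for Runx1, chr17:44814583-44814612 (minus strand) for Runx2 and chr4:135120503-135120532 (plus strand) for Runx3.
Runx1: cataaaCAACCACAGAACCACAAGttgggt
Runx2: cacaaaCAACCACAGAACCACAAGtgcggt
Runx3: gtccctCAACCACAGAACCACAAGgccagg
Distances are counted from the RefSeq transcript start of each window. The run lies 26 to 43 bases downstream in Runx1, 21 to 38 downstream in Runx2 and, upstream, between -136 and -119 in Runx3. These starts are not the ends of the gene spans given below, from which the distances would differ. Among 32851 windows it was found in 4 when both strands were searched, and the fourth belongs to Gm16225, whose window overlaps that of Runx3. ACCACA, searched on both strands (TGTGGT on the other), occurred at least once in 16.8% of all windows, at least 2 times in 1.81% and at least 3 times in 0.183%. The distal windows of Runx1 and Runx3 each held 2 matches and that of Runx2 held 3. The other windows of Runx1 and Runx3 and the window of Cbfb held 0, and 1 window was given for Runx2. A match in these letters is a description of the sequence and was not linked to binding.

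Values are the deposited rlog values, which are log2 values normalized for library size and shrunk towards the mean of the gene, more strongly where few reads were counted. The table carries no read counts, so the depth of each cornea is unknown here and no interval for counting error can be given. Strains were compared with limma over the 25402 genes whose rlog values averaged 0 or more, with Benjamini-Hochberg adjustment over all of them, and a gene was called at an adjusted p of 0.01 or less. Differences are BALB/cN minus C57BL/6N. The median difference over all genes tested was 0.008. The tissue matched its label, with mean rlog values of the corneal epithelial list (Krt12, Pax6 and others) of 15.22 to 15.84 in all 8 corneas. The corneas were not alike in composition. The stromal keratocytes list (Kera, Lum, Dcn and others) had a mean rlog value of 11.04 in BALB/cN cornea 2, 10.54 in C57BL/6N cornea 3 and 10.45 in C57BL/6N cornea 4, against 12.48 to 13.10 in the other 5. BALB/cN corneas 1 and 4 stood apart by lens transcripts (list means of 8.11 and 7.17, against 4.78 to 5.72 in the other 6) and by pigment cell transcripts (9.58 and 10.48, against 5.85 to 7.96). Each member is therefore also given with these corneas left out or with the keratocyte list in the fit.

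Per kilobase of annotated exon the order of the 4 genes was the same in all 8 corneas. Cbfb stood highest, with a level per kilobase (2 to the power of the rlog value, divided by the length of all exons in kilobases) of 669 to 757 over the 8 corneas. Runx1 followed with 282 to 421 and Runx2 with 82.1 to 184. Runx3 was lowest by far, with 3.32 to 4.62. None of these ranges overlapped its neighbour in the order. By rlog value alone Runx1 (11.73 to 12.30) lay above Cbfb (11.18 to 11.36), so the order of these genes rests on the exon length. That length counts all annotated exons, and which transcripts the cornea makes is not known here. The shares and ratios per kilobase depend on it too. Runx1 made up most of the summed Runx level per kilobase in both strains, 67.8% to 72.7% in BALB/cN and 71.9% to 81.0% in C57BL/6N corneas. Runx2 gave 26.7% to 31.3% in BALB/cN and 18.3% to 27.2% in C57BL/6N corneas, so the ranges of both genes touched between strains. Runx3 never exceeded 1.02%.

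Runx2 was the 1 gene of the 4 called between the strains, and it was higher in BALB/cN corneas. Over all genes tested 5.74% were called, 2.83% as higher in BALB/cN and 2.91% as lower. In 18.3% of genes the 4 corneas of a strain all lay on one side of the other 4, and of the members this held for Runx2 alone. A count of 1 in 4 is too small to be set against these shares.

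**Figure D1:**
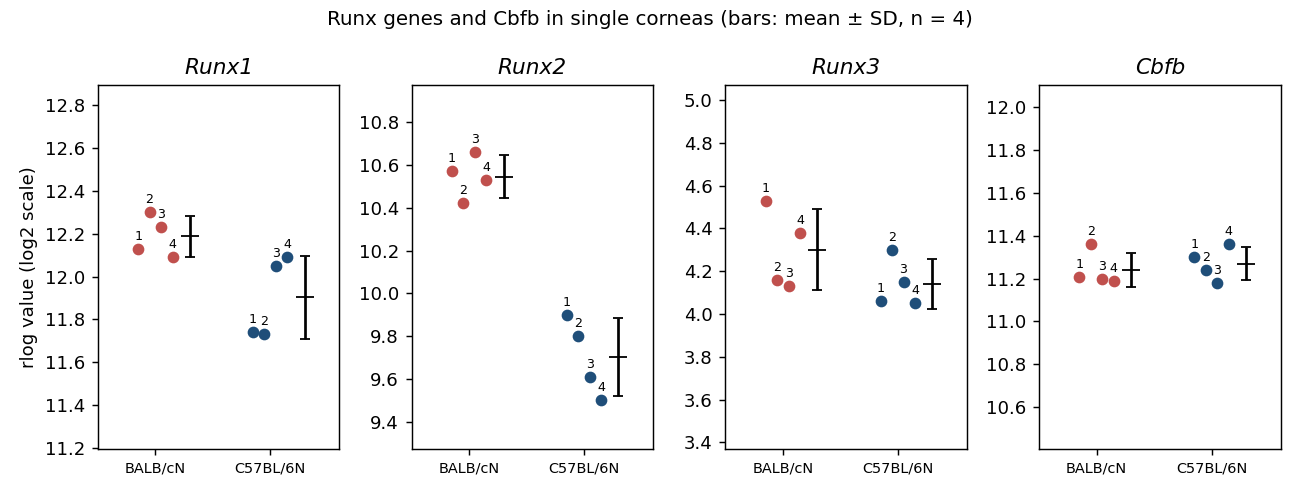
The rlog value (log2 scale) of Runx1, Runx2, Runx3 and Cbfb in each cornea, by strain, with the replicate number beside each point and the mean ± SD (n = 4) as a bar. Every panel spans the same number of log2 units. In the Runx2 panel the BALB/cN corneas (10.42 to 10.66) all lie above the C57BL/6N corneas (9.50 to 9.90), while the strains overlap or touch in the other panels.

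Runx2 (ENSMUSG00000039153, chromosome 17, 44495987 to 44814797, minus strand, GRCm38) encodes the master factor of osteoblast and hypertrophic cartilage differentiation. Its rlog values were 10.57, 10.42, 10.66 and 10.53 in BALB/cN corneas 1 to 4 and 9.90, 9.80, 9.61 and 9.50 in C57BL/6N corneas 1 to 4. The lowest BALB/cN cornea thus lay above the highest C57BL/6N cornea. The means were 10.55 ± 0.10 and 9.70 ± 0.18 (SD, n = 4 each), a difference of 0.84 on the log2 scale (SE 0.0946, 95% confidence interval 0.63 to 1.06), or 1.8-fold on the shrunken scale. The adjusted p from limma was 0.00038, and by p the gene ranked 440th of those tested. The exact two-sided permutation test over the 8 corneas gave p = 0.0286, the smallest that 4 against 4 allows. After Benjamini-Hochberg adjustment over the 4 members this exact permutation p was 0.114. Per kilobase the level was 169 ± 12.0 in BALB/cN and 94.8 ± 11.8 in C57BL/6N corneas.

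The Runx2 difference was between 0.78 and 0.91 when any single cornea was left out, with adjusted p values from limma of 0.000429 to 0.00255. It was 0.74 without the 3 corneas low in stromal transcripts, where it was still called, and 0.84 without the 2 BALB/cN corneas with lens and pigment transcripts, where 2 BALB/cN corneas remained and the adjusted p from limma was 0.018. The study recalibrated the p-values of its count model with another method, and Runx2 stayed among its differentially expressed genes, higher in BALB/cN. Here limma's statistics were scaled to an empirical null, as their spread over all genes was 1.668 times that of theory. The scaling called 0 genes, although 6009 had an unadjusted p under 0.05 before it, and the adjusted p of Runx2 became 0.426. That outcome does not describe the study's own procedure.

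Runx1 (ENSMUSG00000022952, chromosome 16, 92601466 to 92826149, minus strand) was not called, but its values divided within C57BL/6N. They were 12.13, 12.30, 12.23 and 12.09 in BALB/cN corneas 1 to 4, and 11.74, 11.73, 12.05 and 12.09 in C57BL/6N corneas 1 to 4. C57BL/6N corneas 3 and 4 came up to the lowest BALB/cN cornea, and corneas 1 and 2 lay well below it. The difference was 0.28 (12.19 ± 0.10 against 11.90 ± 0.20, SD, n = 4 each, SE 0.0954, 95% confidence interval 0.07 to 0.50). Its adjusted p from limma was 0.0985, and its exact permutation p was 0.0571 (0.114 after Benjamini-Hochberg adjustment over the 4 members). Per kilobase the level was 389 ± 26.2 against 321 ± 43.4.

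The C57BL/6N corneas with high Runx1 were those with few stromal transcripts. With the mean of the keratocyte list added to the limma model, Runx1 fell by 0.12 per unit of that mean within strains (slope -0.12, SE 0.0179, adjusted p 0.00111), where 6.65% of genes had a called slope. The strain difference of Runx1 in that model was 0.35 (SE 0.0398, adjusted p from limma 0.00013), which is a call, where 9.59% of genes were called. Without the 3 stroma-poor corneas, a setting chosen after seeing the data, the difference was 0.41, with an adjusted p of 0.00794 from limma. The 3 remaining BALB/cN corneas (12.09 to 12.23) then all lay above the 2 remaining C57BL/6N corneas (11.73 and 11.74). In a whole cornea, fewer cells of a type and less RNA per cell cannot be told apart.

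Runx2 had the opposite sign on the keratocyte list, with a slope of 0.10 per unit (SE 0.0271, adjusted p from limma 0.0286), which is not a call. Its strain difference in that model was 0.79 (SE 0.0599, adjusted p from limma 7.33e-06). Within C57BL/6N the stroma-rich corneas 1 and 2 were the higher ones for Runx2 (9.90 and 9.80) and the lower ones for Runx1 (11.74 and 11.73). In BALB/cN the stroma-poor cornea 2 had the lowest Runx2 value (10.42) and the highest Runx1 value (12.30). The slopes of Runx3 (0.06, adjusted p 0.454) and Cbfb (-0.03, adjusted p 0.556) were not called by limma. Since the corneas fall into stroma-rich and stroma-poor ones, these slopes, the called one of Runx1 included, rest largely on that contrast. For the same reason no correlation over the 8 was computed with this list.

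**Figure D2:**
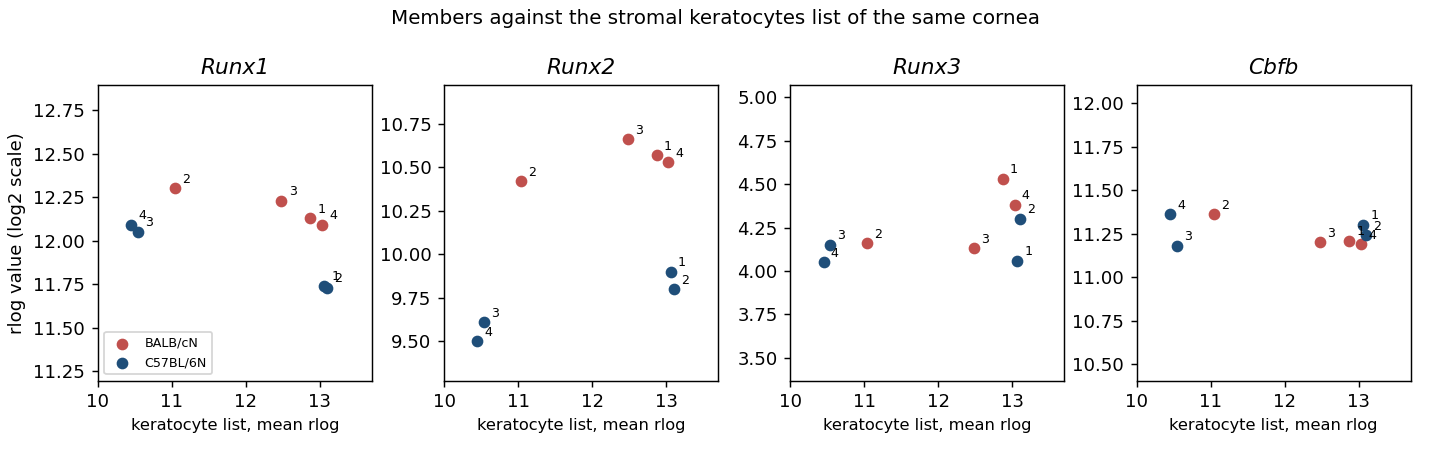
The rlog value (log2 scale) of each member in a cornea against the average of the stromal keratocytes list in the same cornea (mean rlog value), with strains in colour and replicate numbers beside the points. Runx1 is higher and Runx2 lower in the stroma-poor corneas of each strain, at list means of 10.45 to 11.04.

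Runx3 (ENSMUSG00000070691, chromosome 4, 135120652 to 135177990, plus strand) had the lowest values of the 4 genes. Its rlog values were 4.53, 4.16, 4.13 and 4.38 in BALB/cN and 4.06, 4.30, 4.15 and 4.05 in C57BL/6N corneas 1 to 4. The strains overlapped, and the highest values belonged to BALB/cN corneas 1 and 4, the same that carried lens and pigment transcripts. The difference was 0.16 (4.30 ± 0.19 against 4.14 ± 0.11, SE 0.107, 95% confidence interval -0.08 to 0.40, adjusted p from limma 0.408), and without these corneas it was 0.01. Whether those transcripts have a part in it was not tested. At low levels rlog shrinks more, and a true difference could be larger than the rlog difference.

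Cbfb (ENSMUSG00000031885, chromosome 8, 105170674 to 105217989, plus strand), the shared non-DNA-binding subunit, was the steadiest of the 4. Its values were 11.21, 11.36, 11.20 and 11.19 in BALB/cN and 11.30, 11.24, 11.18 and 11.36 in C57BL/6N corneas 1 to 4. All 8 lay within the span from 11.18 to 11.36, and the highest value of each strain was the same. The difference was -0.03 (11.24 ± 0.08 against 11.27 ± 0.07, SE 0.061, adjusted p from limma 0.804), and its 95% confidence interval of -0.17 to 0.11 leaves out a change as large as that of Runx2.

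For plain log2 values, a difference between 2 genes of the same cornea does not depend on how that cornea was scaled. The 6 pairs of members were compared in this way. With rlog values this holds only in part, and least for pairs with Runx3, whose low values are shrunk more. Runx2 minus Cbfb lay between -0.95 and -0.54 in BALB/cN and between -1.86 and -1.40 in C57BL/6N corneas, a shift of 0.88. Runx2 minus Runx3 shifted by 0.68 and Runx1 minus Cbfb by 0.31. In these 3 pairs the strains did not overlap, and the exact permutation p was 0.0286 for each (0.0571 after Benjamini-Hochberg adjustment over 6 pairs, and no pair passed 0.05). Runx1 minus Runx2 was 1.64 ± 0.16 in BALB/cN and 2.20 ± 0.37 in C57BL/6N, a shift of -0.56 (exact permutation p 0.0571, adjusted 0.0857). Its C57BL/6N values were higher in corneas 3 and 4. Runx1 minus Runx3 (0.12) and Runx3 minus Cbfb (0.19) overlapped between strains. Summed over the 3 genes, the Runx level per kilobase was 535 to 586 in BALB/cN and 387 to 449 in C57BL/6N corneas, and divided by that of Cbfb it was 0.765 to 0.866 against 0.548 to 0.665.

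Members were also set against the compartment lists of the same cornea. Minus the keratocyte list, all 4 overlapped widely between strains, and the shift of Runx2 was 0.28 (exact permutation p 0.771), since the list itself ranged over more than 2 log2 units within C57BL/6N. Minus the epithelial list, all 4 were separated, with shifts of 0.70 for Runx1, 1.26 for Runx2, 0.57 for Runx3 and 0.38 for Cbfb (exact permutation p 0.0286 each, 0.0571 after Benjamini-Hochberg adjustment over 8 tests). A shift shared even by Cbfb came with the list mean, which was 15.22 to 15.37 in BALB/cN and 15.70 to 15.84 in C57BL/6N, and in which Krt15, a keratin of basal and limbal cells, was lower by 4.10 in BALB/cN (a difference of -4.10, adjusted p from limma 1.54e-05). Against the median of the list Runx1 and Runx2 stayed separated, while Runx3 (0.38) and Cbfb (0.19) did not (exact permutation p 0.114 each).

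Genes on one side of Runx2 were called with it, and those on the other side were not. The 3 nearest tested protein-coding genes downstream of its 3′ end were all called higher in BALB/cN, and the 4 corneas of each strain were separated in all of them. Clic5, which encodes a chloride intracellular channel protein tied to the actin cytoskeleton, was 11.30 ± 0.13 against 10.23 ± 0.12 (difference 1.07, SE 0.0824, adjusted p from limma 3.26e-05). Enpp4, an ectonucleotide pyrophosphatase family member, was 9.05 ± 0.10 against 8.15 ± 0.19 (difference 0.90, SE 0.10, adjusted p 0.000364 by limma). Its call was lost without the 3 stroma-poor corneas (0.85, adjusted p 0.0177 by limma) and without the 2 corneas with lens and pigment transcripts (0.87, adjusted p 0.0173). Its neighbour Enpp5 was 11.16 ± 0.04 against 10.20 ± 0.08 (difference 0.97, SE 0.0558, adjusted p 4.85e-06 by limma). The 4 differences from Enpp5 to Runx2 thus lay between 0.84 and 1.07. On the other side Cdc5l (-0.13), Spats1 (-0.01) and Aars2 (-0.33, adjusted p from limma 0.0114) were not called.

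No tested gene that overlaps Runx2 was called, and Runx2os1 had a smaller difference in the same direction. Supt3, a subunit of the SAGA coactivator complex whose gene starts inside Runx2 on the opposite strand, was 8.75 ± 0.12 in BALB/cN and 8.70 ± 0.04 in C57BL/6N (difference 0.05, SE 0.0744, adjusted p from limma 0.719). The antisense gene Runx2os1 was 5.93 ± 0.15 against 5.66 ± 0.14 (difference 0.27, SE 0.108, adjusted p from limma 0.159). It shares 519 exon bases with Runx2. Of all 50-base words in Runx2 transcripts 6.14% occur in transcripts of other genes too, most of them in Runx2os1, against 0.47% for Runx1, 2.24% for Runx3 and 0% for Cbfb. The libraries were strand-specific, but the strand setting of the counting is not given in the sources used here, and without it reads of Runx2 and Runx2os1 in the shared bases cannot be told apart. Runx2os2 (0.08, mean rlog values of 1.98 in BALB/cN and 1.90 in C57BL/6N) and n-R5s27 (0.06, 2.50 and 2.44) were not called. At such low values rlog shrinks more, and a difference could be hidden. Runx2os3 was listed at 0.

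**Figure D3:**
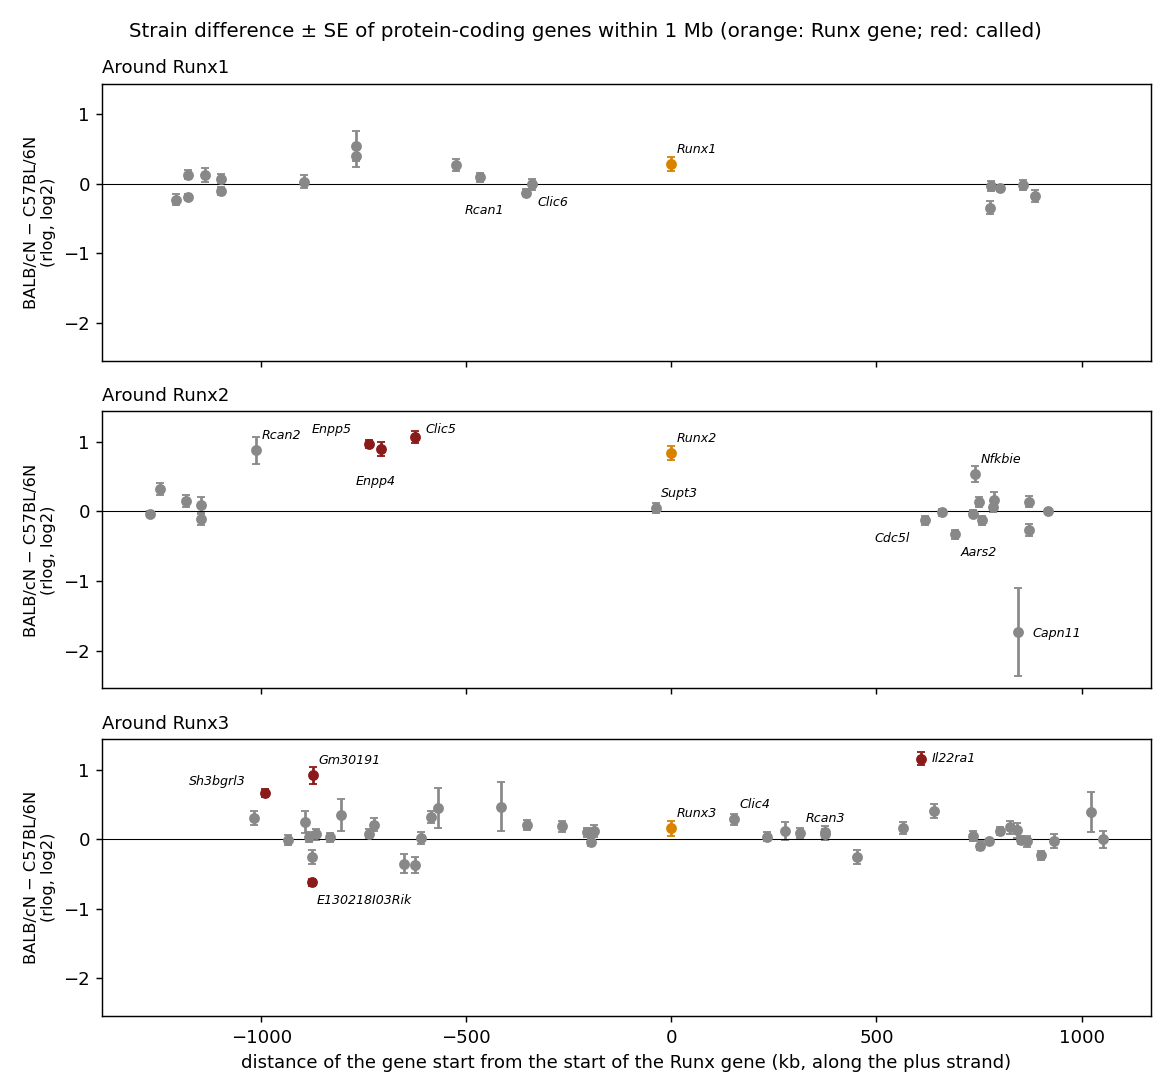
Strain difference (BALB/cN minus C57BL/6N, rlog, log2 scale) ± SE from limma of each tested protein-coding gene within 1 Mb of Runx1, Runx2 or Runx3, by the distance in kilobases of its start from that of the Runx gene. Runx genes are orange, other called genes red and genes that were not called grey. Left of Runx2, Clic5, Enpp4 and Enpp5 lie at 0.90 to 1.07, and Supt3, which starts inside Runx2, lies at 0.05.

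Beside the other members the counts were near or below those over all genes. Of the 18 genes nearest to Runx1, Runx3 and Cbfb (3 tested genes on each side), limma called 0 (5.74% of all genes tested were called), and 5 had an unadjusted p under 0.05 (6009 of 25402 over all genes). Beside Runx1, Setd4 had the difference farthest from 0 (-0.35, adjusted p from limma 0.0423), and Rcan1 (-0.13) and Clic6 (-0.01) lay close to 0. Beside Runx3, Clic4 was 0.29 (adjusted p from limma 0.045), and beside Cbfb, Ces2f was -0.32 (adjusted p from limma 0.0168). Gm26626, antisense to Runx1 with 106 shared exon bases, was 0.06.

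Transcripts of proteins that act with RUNX factors were called about as often as genes at large. All 25 genes of the list of partners and regulators were tested, 1 was called higher in BALB/cN (2.83% of all genes tested) and 1 lower (2.91% of all), and the median difference was -0.01 against 0.008 over all genes. Hipk2, a kinase that phosphorylates RUNX proteins and their coactivator p300, was lower in BALB/cN: its values were 13.37 to 13.50 in BALB/cN and 13.67 to 13.89 in C57BL/6N corneas (difference -0.35, SE 0.058, adjusted p from limma 0.00371). Trps1, a GATA-type repressor that interacts with RUNX2, was 11.68 to 11.87 against 11.44 to 11.56 (difference 0.29, SE 0.056, adjusted p from limma 0.00988). Neither call was secure: that of Trps1 was lost whichever cornea was left out, and that of Hipk2 in 6 of 8 such fits. The best expressed partners that were not called were the histone acetyltransferases Crebbp (-0.10), Ep300 (0.03) and Kat6a (-0.02) and the short Groucho-family protein gene Aes (0.06).

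Of the 20 osteoblast genes and Runx2 targets, 15 were tested, 2 were at 0 in all corneas, 3 were called higher in BALB/cN (2.83% of all genes tested) and 1 lower (2.91% of all), with a median difference of 0.04 against 0.008 over all genes. Alpl, the tissue-nonspecific alkaline phosphatase used as an early osteoblast marker, was 13.57, 13.72, 14.02 and 13.94 in BALB/cN and 12.53, 12.30, 12.39 and 12.29 in C57BL/6N corneas 1 to 4. All BALB/cN corneas lay more than 1 log2 unit above the highest C57BL/6N cornea, and the difference was 1.44 (SE 0.0997, adjusted p from limma 1.7e-05). Msx2, a homeobox gene of skull and eye development, was 6.74, 6.92, 6.69 and 6.15 in C57BL/6N corneas and 7.52 to 7.78 in BALB/cN (difference 1.01, SE 0.154, adjusted p from limma 0.0024). Vegfa, the vascular growth factor, was 10.05 to 10.53 against 9.15 to 9.68 (difference 0.87, SE 0.136, adjusted p from limma 0.00291), and its call was lost without BALB/cN cornea 3 (0.79, adjusted p 0.0103), BALB/cN cornea 4 (0.86, 0.0115) or C57BL/6N cornea 3 (0.81, 0.012). It was also lost without the 3 stroma-poor corneas (0.67, adjusted p 0.0336 by limma) and without the 2 corneas with lens and pigment transcripts (0.97, 0.0277), and the latter setting ended the call of Msx2 too (1.06, 0.0417). By the paper's account Vegfa lies in the same mapped locus on chromosome 17 as Runx2. Vegfa is thus a linked gene, and whether RUNX2 acts on it here was not tested. Dlx5, a homeobox gene that acts upstream of Runx2 in bone, went the other way, with 7.46 to 7.88 in BALB/cN and 8.74 to 8.99 in C57BL/6N corneas (difference -1.22, SE 0.107, adjusted p from limma 7.38e-05).

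Several genes that define bone were at 0 or low. Ibsp and Dmp1, products of mineralising osteoblasts and osteocytes, were at 0 in all corneas, as were Sost, an osteocyte gene, and Matn1, a cartilage gene. Bglap, which encodes osteocalcin, passed the filter with mean rlog values of 0.52 and 0.51, and Bglap2 (-1.73 in both strains) and Sp7 (-0.04 and -0.03) lay below it. Of the 9 genes of the bone and cartilage list 3 were tested. By limma 0 of them were called, where 5.74% of all genes were, and 0 had an unadjusted p under 0.05. The collagens Col1a1 (0.37, SE 0.506) and Col1a2 (0.63, SE 0.541), which keratocytes also make, were the best expressed genes of the osteoblast list and overlapped between strains. Col1a1 is also a member of the keratocyte list. Tnfrsf11b (0.09) and Pth1r (-0.23) were not called.

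**Figure D4:**
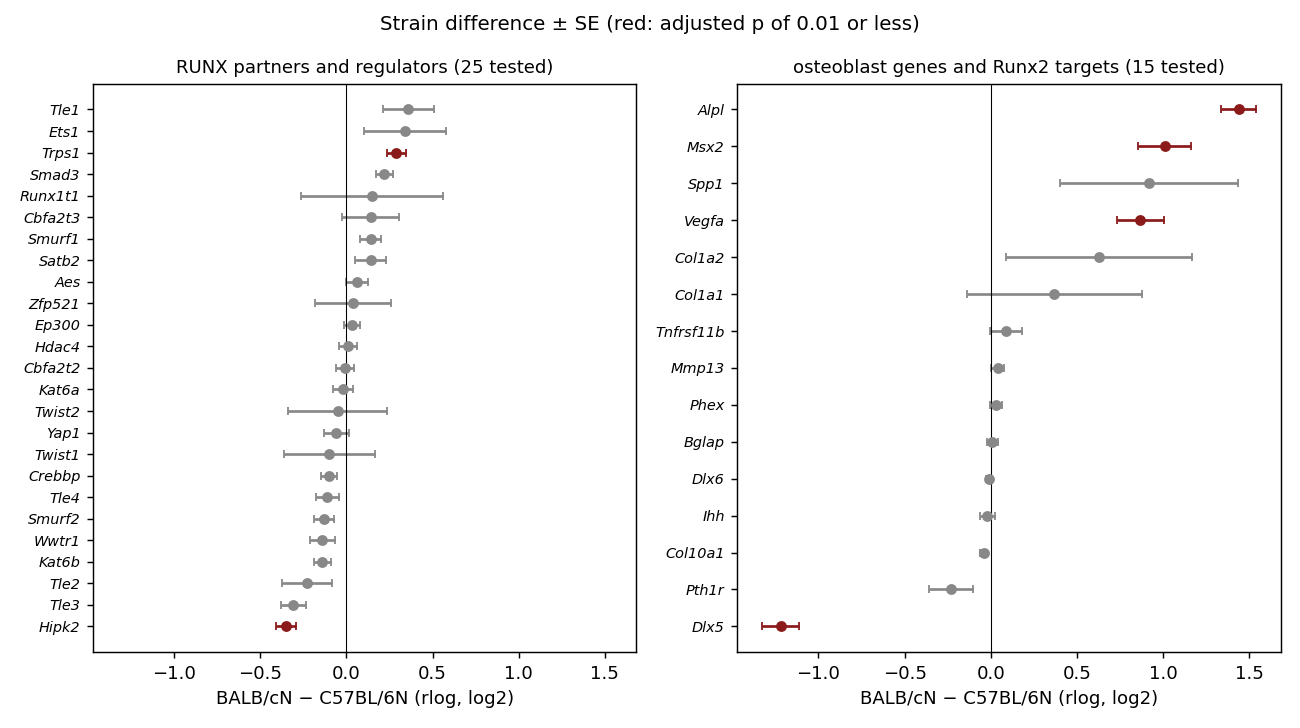
Strain difference (BALB/cN minus C57BL/6N, rlog, log2 scale) ± SE from limma of each tested gene of the list of RUNX partners and regulators (25 genes) and of the list of osteoblast genes and Runx2 targets (15 genes), with called genes in red. Alpl (1.44), Msx2 (1.01) and Vegfa (0.87) lie to the right, Dlx5 (-1.22) to the left, and most partners within 0.35 of 0.

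Most blood cell genes and targets of Runx1 or Runx3 could hardly be compared. Of 18 genes in the list 10 were tested and 7 were at 0. By limma 0 of the 10 were called, where 5.74% of all genes were, too few genes to read anything from, and 1 had an unadjusted p under 0.05. The median difference was less than 0.01 in size. Zbtb7b, which sets the fate of helper T cells and is also expressed in epithelia, was the best expressed (-0.05). Cebpa (0.09), Csf1r (0.59, SE 0.424) and Spi1 (-0.06) were also not called.

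Apart from Epcam, markers of T cells, NK cells and Langerhans cells were low. Macrophage markers ranged from Fcgr1 (mean rlog values of 3.40 in BALB/cN and 3.21 in C57BL/6N) to Cd68 (10.33 and 10.12). For the counts below, 5.74% of all genes tested were called, 2.83% as higher in BALB/cN and 2.91% as lower. In the T and NK cell list 3 of 11 genes were tested, 0 were called by limma, 0 had an unadjusted p under 0.05, and Cd3d, Cd8a, Ncr1, Klrb1c and Nkg7 were at 0 in all corneas. Of the 8 genes of the Langerhans and dendritic cell list 3 were tested and Epcam, which is also an epithelial gene, was called higher (0.73). Cd207, the marker of Langerhans cells, lay below the filter (mean rlog value of -1.01 in BALB/cN and -0.99 in C57BL/6N), and Xcr1 and, of the red blood cell list, Hba-a1 were at 0. Of 14 macrophage genes, Aif1 (1.66) and Lst1 (1.33) were called higher in BALB/cN by limma and 12 were not called. The mean of the macrophage list was 5.93 to 6.52 in BALB/cN and 5.59 to 6.20 in C57BL/6N corneas. Of the 8 genes of the conjunctiva list, 4 were called lower in BALB/cN by limma (2.91% of all genes tested). These were Krt13 (-2.51), Krt4 (-1.17), Krt19 (-0.97) and Muc4 (-0.48). Muc5ac (2.19, adjusted p 0.0225 by limma) and Krt8 (0.40, adjusted p 0.0111 by limma) had higher values in BALB/cN with the strains separated, but were not called. The part of such cells in the values of the members was not tested. With the macrophage list mean in the model the strain difference was 0.49 for Runx1 (adjusted p from limma 0.000219), 0.68 for Runx2, which was still called, and 0.04 for Runx3. The list holds Aif1 and Lst1, which were themselves called, so its mean is not independent of strain. By the paper's account both lie in the same mapped locus on chromosome 17 as Runx2.

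Within strains, the genes whose deviations from the strain means ran most like those of a member over the 8 corneas were taken from 11316 well expressed protein-coding genes. For Runx1 they were Taf4, Ikzf2 and Rbm47 (r = 0.993, 0.993 and 0.991). For Runx2 they were Nfatc1, Gstm1 and Sec16b (r = 0.984, 0.98 and 0.972). For Runx3 they were Pnpla7, Fam160b1 and Tmem198b (r = 0.957, 0.956 and 0.937), and for Cbfb Larp4, Ptgr1 and Ddx20 (r = 0.979, 0.976 and 0.972). The deviations of Runx1 and Runx2 ran against each other (r = -0.821), and those of Cbfb were weakly related to both (0.351 and -0.399). These coefficients describe 8 corneas whose stromal content fell into 2 classes, and many genes share that pattern.

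**Figure D5:**
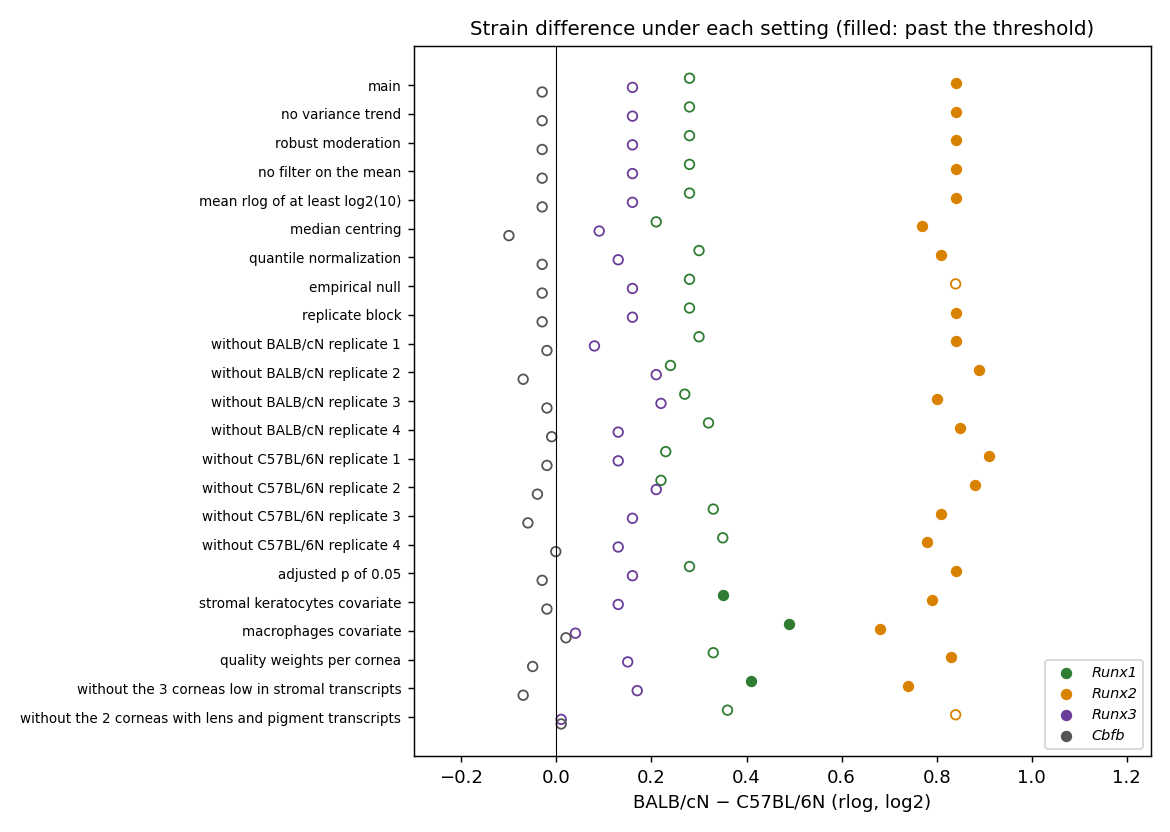
Strain difference (BALB/cN minus C57BL/6N, rlog, log2 scale) of each member as reported (top row) and under 22 other settings, with filled points where the adjusted p from limma passed the threshold. Runx2 stays between 0.68 and 0.91 and is filled in all but 2 alternatives, Runx1 is filled in 3, and Runx3 and Cbfb in none.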

How the data were processed

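Total RNA of 8 naive corneas was sequenced from strand-specific libraries. The authors aligned reads to strain pseudo-genomes of GRCm38 with TopHat2 2.1.1, counted them per Ensembl gene with HTSeq 0.7.1 and deposited the DESeq2 1.30 rlog table, whose values are log2. All its columns were used. From these, strains (4 corneas each) were compared with limma 3.58.1 (R 4.3.3; lmFit, eBayes with a variance trend). Tested were genes whose rlog values averaged 0 or more, with Benjamini-Hochberg adjustment. The study's count model was replaced because the table holds no counts. Exact two-sided permutation tests used scipy 1.17.1. Positions and exon lengths came from a GRCm38 annotation that held 31302 of the 31314 genes not at 0. The limma step was tested on simulated data.

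Members, lists and the rule for named genes were chosen with earlier results of these data known. The rule took the members, overlapping genes, the 3 nearest tested genes on each side, called genes and up to 4 best expressed uncalled genes of each list, markers at 0, and the 3 most alike genes per member. The deviations of same-numbered corneas from their strain means had correlations of 0.31, -0.53, -0.20 and -0.45. Such deviations also carry stromal content, so they cannot decide whether the numbers pair corneas. The main fit did not pair them. The alternatives of leaving out stroma-poor corneas or those with lens and pigment transcripts were chosen after seeing the data.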

Additional observations from a re-analysis of the deposited data

Results flagged for a closer look

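Of 60 groups of 4 values looked at, 3 had a single cornea far from the rest of its strain, as many as the 3 that chance alone gives. In each, the gap to the nearest cornea divided by the range of the group passed Dixon's 95% critical value for 4 samples. Cbfb in BALB/cN gave 0.887, with cornea 2 at an rlog value of 11.36 and the others at 11.19 to 11.21. Runx1 minus Runx2 in BALB/cN gave 0.989, with cornea 2, the stroma-poor one, at 1.89 and the others at 1.56. Runx2 minus Runx3 in C57BL/6N gave 0.866, with cornea 1 at 5.83 and the others at 5.45 to 5.50.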

How the results depend on the processing

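The strain difference kept its direction and its side of the threshold in 19 of 22 alternatives for Runx1, 20 of 22 for Runx2, 22 of 22 for Runx3 and 20 of 22 for Cbfb. Runx1 was newly called by limma with the keratocyte covariate (0.35), with the macrophage covariate (0.49) and without the 3 corneas low in stromal transcripts (0.41). Runx2 lost its call under the empirical null (0.84, adjusted p 0.426) and without the 2 corneas with lens and pigment transcripts (0.84, adjusted p 0.018). Cbfb, never called, changed sign with the macrophage covariate (0.02) and without those 2 corneas (0.01). The replicate block (Runx2 0.84, Runx1 0.28) changed no call of a member.

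Genes called over the whole table were 958 after median centring, 0 under the empirical null (6009 had an unadjusted p under 0.05), 554 with the replicate block, 2842 at an adjusted p of 0.05, 2435 with the keratocyte covariate, 852 and 447 in the fits without 3 and without 2 corneas, and 953 to 1163 with any 1 cornea left out (953 without C57BL/6N cornea 4). Partners called were 1 without the variance trend or the filter, 0 after median centring, under the empirical null, with the replicate block and in both fits without several corneas, 4 at 0.05 or with either covariate, and 0 to 1 with 1 cornea left out. Osteoblast genes called were 0 under the empirical null, and 2 with the replicate block (without Msx2 and Vegfa) or without the 2 lens and pigment corneas.

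With 1 cornea left out, Runx1 minus Runx2 was -0.68 to -0.43 (strains separated without BALB/cN cornea 2 or C57BL/6N cornea 1). Minus the keratocyte list, Runx1 was -0.78 to 0.22, Runx2 -0.13 to 0.66 and Runx3 -0.86 to 0.01, and Runx2 was -0.09 against the list's median. Against the epithelial median Runx3 (0.38) and Cbfb (0.19) lost separation. Supt3 was -0.02 after median centring and -0.01 after quantile normalization. Without counts, no depth limit can be given, and shrinkage limits Runx3 most. Why values moved between settings was not tested, also where a setting left out corneas.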

Other observations

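The genes beyond the 3 nearest neighbours of Runx2 were listed after the first values were seen. Rcan2, a regulator of calcineurin and the next tested protein-coding gene beyond Enpp5, was 7.06, 6.72, 7.13 and 7.22 in BALB/cN and 6.21, 6.69, 5.96 and 5.78 in C57BL/6N corneas 1 to 4. The strains did not overlap, though C57BL/6N cornea 2 came within 0.1 of BALB/cN cornea 2. The difference was 0.88 (SE 0.193, adjusted p from limma 0.0173), not a call, and without C57BL/6N cornea 2 it was 1.05 with an adjusted p of 0.00315. In the other 7 fits with 1 cornea left out it was 0.75 to 0.98 (adjusted p 0.0172 to 0.0552), with the macrophage covariate it was 0.49 (adjusted p 0.0478), and without the 2 corneas with lens and pigment transcripts it was 0.77 (adjusted p 0.195). The values from Rcan2 to Runx2 cover 5 consecutive tested protein-coding genes, 4 of them called, flanked by Cyp39a1 (0.09) and by Supt3 (0.05). Of the 23 other tested protein-coding genes within 1 Mb of Runx2, 3 were called (9 at an unadjusted p under 0.05), against 0 of 18 for Runx1 (7), 4 of 46 for Runx3 (15) and 1 of 65 for Cbfb (13). Over all genes tested 5.74% were called and 6009 of 25402 had an unadjusted p under 0.05.

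Each Runx gene has a Clic and an Rcan gene for a neighbour, a layout kept since the genes were copied. Beside Runx2, Clic5 (1.07) and Rcan2 (0.88) had differences near that of Runx2 (0.84). Beside Runx1, Clic6 (-0.01) and Rcan1 (-0.13) were not called, nor were Clic4 (0.29) and Rcan3 (0.09) beside Runx3.

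A pair of other genes near Runx2 stood out by value. Nfkbie, an inhibitor of NF-κB, was 0.54 higher in BALB/cN (adjusted p from limma 0.0123) with the strains separated. Capn11 was 4.60, 6.11, 8.03 and 7.65 in C57BL/6N corneas 1 to 4 and 4.68 to 5.02 in BALB/cN (difference -1.73, adjusted p from limma 0.127), high in the stroma-poor corneas 3 and 4 of C57BL/6N but not in the stroma-poor BALB/cN cornea 2 (4.68).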
